A study of Mus musculus with 6 samples.

Results

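Cytochrome c and 3 nuclear subunits of cytochrome c oxidase exist in the mouse as a testis isoform and a widely expressed counterpart. The 10 genes followed here, of 32285 in the count tables, are Cox6b2 and Cox6b1, Cox7b2 and Cox7b, Cox8c and Cox8a, Cyct and Cycs, and the subunit 4 isoforms Cox4i1 and Cox4i2. They were chosen by name, as isoform pairs, with earlier results of these data known. Single-cell RNA sequencing had been run on whole testes of 8-week-old C57BL/6 wildtype mice (C57BL/6N in the methods of the study) fed High Fat Diet (HFD) or, as its control, Low Fat Diet (LFD) over 2 weeks, with 3 mice per diet according to the methods of the study and 1 library per mouse. The labels name no transgene, mutation or other treatment for either group. The 6 libraries held 48939 barcodes and 429495465 UMIs (unique molecular identifiers, each standing for 1 captured mRNA molecule), between 39196921 and 95845514 per library.

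The diet of each library is taken from its label, but in each of the 6 cases the name of the deposited table states the other diet. The barcode numbers checked in the study's supplement go with the table names and not with the labels. The groups are therefore written as libraries labelled HFD and libraries labelled LFD, and every difference between diets would change sign if the table names were right. The results along germ cell stages do not depend on these labels. Between 12 and 28 barcodes were shared by a pair of libraries, and they were kept as separate barcodes.

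Cytochrome c carries electrons from complex III to cytochrome c oxidase (complex IV), the terminal enzyme of the respiratory chain, which passes them to oxygen. The catalytic core of complex IV is encoded by mitochondrial DNA, and small nuclear subunits such as 4, 6B, 7B and 8 surround it and tune its assembly and activity. Male germ cells are known for using their own versions of several of these proteins, and Cyct, the testis cytochrome c, stands beside Cycs, which also serves as a signal in apoptosis when it leaves the mitochondrion. Cox4i1 is the common subunit 4, and Cox4i2 is the form known from lung and from cells at low oxygen.

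The genes lie apart from one another in the mm10 annotation. Cox6b2 (chr7:4751792-4753094) and Cox6b1 (chr7:30616861-30626151) share chromosome 7, Cyct (chr2:76353942-76360450) and Cox4i2 (chr2:152754173-152765037) share chromosome 2, and Cox7b (chrX:106015700-106022450) is the only X-linked member. Cox7b2 (chr5:71442824-71548205), Cox8c (chr12:102899316-102900526), Cox8a (chr19:7215153-7217616), Cycs (chr6:50562563-50566538) and Cox4i1 (chr8:120668222-120674207) are on other autosomes. Within a pair the coding sequences were 51.1% identical for Cox6b2 and Cox6b1, 65.1% for Cox7b2 and Cox7b, 51.7% for Cox8c and Cox8a, 76.9% for Cyct and Cycs and 62.7% for Cox4i2 and Cox4i1. The longest exact run that a pair shared was 9 to 14 bases, so reads can tell the isoforms of a pair apart. Cycs is the exception among the members in another respect: its main transcript shares an exact run of at least 60 bases with 18 other annotated genes, 10 of which are in the count tables, and its counts are uncertain for that reason. The other 9 members share no such run with any gene.

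The members of each type had similar courses along the stages, so the promoters of 3 testis isoforms and of the 2 widely expressed genes that fell to the lowest levels in pachytene spermatocytes are shown. They are RefSeq sequences of the GRCm38.p6 build, from 250 bases before to 50 bases after the annotated start, 5′ to 3′ on the strand of the gene, for Cox6b2 (chr7:4753045-4753344, minus strand), Cox7b2 (chr5:71548156-71548455, minus strand), Cyct (chr2:76360404-76360703, minus strand), Cox7b (chrX:106015450-106015749, plus strand) and Cycs (chr6:50566520-50566819, minus strand). Promoter sequences were matched for 7 of the 10 members, and the 3 others are Cox8c, Cox4i1 and Cox4i2. Capitals mark exact matches, on either strand, to one of the searched motifs.
Cox6b2: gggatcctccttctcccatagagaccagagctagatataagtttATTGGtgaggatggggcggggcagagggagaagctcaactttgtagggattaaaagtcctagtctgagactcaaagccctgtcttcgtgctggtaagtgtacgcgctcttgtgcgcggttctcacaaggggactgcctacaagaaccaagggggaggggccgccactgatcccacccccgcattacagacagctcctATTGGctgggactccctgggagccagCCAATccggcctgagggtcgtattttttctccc
Cox7b2: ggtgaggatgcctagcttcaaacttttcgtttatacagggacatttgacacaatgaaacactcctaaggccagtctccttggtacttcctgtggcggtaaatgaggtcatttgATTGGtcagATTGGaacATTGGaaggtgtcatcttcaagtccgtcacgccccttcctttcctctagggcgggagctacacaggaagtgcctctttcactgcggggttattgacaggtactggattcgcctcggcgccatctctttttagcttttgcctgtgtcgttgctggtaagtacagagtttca
Cyct: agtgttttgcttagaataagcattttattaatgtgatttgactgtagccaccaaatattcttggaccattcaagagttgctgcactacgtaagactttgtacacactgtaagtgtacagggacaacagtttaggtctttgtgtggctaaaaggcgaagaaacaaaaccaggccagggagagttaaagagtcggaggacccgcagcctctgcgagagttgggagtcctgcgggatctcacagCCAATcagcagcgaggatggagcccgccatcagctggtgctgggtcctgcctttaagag
Cox7b: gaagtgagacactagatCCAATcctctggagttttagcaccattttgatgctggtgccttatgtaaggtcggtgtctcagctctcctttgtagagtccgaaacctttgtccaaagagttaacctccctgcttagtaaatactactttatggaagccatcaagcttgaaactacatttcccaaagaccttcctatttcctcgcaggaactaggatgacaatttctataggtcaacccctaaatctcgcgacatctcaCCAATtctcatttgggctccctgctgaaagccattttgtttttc
Cycs: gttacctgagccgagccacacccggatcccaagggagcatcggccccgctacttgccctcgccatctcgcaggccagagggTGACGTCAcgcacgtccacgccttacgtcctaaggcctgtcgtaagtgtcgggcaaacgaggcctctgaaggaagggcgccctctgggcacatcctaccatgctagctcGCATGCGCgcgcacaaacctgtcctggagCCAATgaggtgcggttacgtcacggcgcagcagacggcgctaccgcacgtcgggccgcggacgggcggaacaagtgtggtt

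The motifs were TGACGTCA (the binding sequence of CREB family factors), GCATGCGC (of NRF1), CTTCCGG (of ETS factors such as GABP), TAACTG (of MYB factors) and CCAAT (of NF-Y), and no match to any of them overlapped a match to another. Cycs held TGACGTCA 169 bases before the start, GCATGCGC 60 bases before it and CCAAT 31 bases before it. These 3 motifs were present in 1.79%, 2.71% and 37.4% of all 32851 promoters of the same length. Cyct held CCAAT only, 9 bases before the start. Cox6b2 held CCAAT 206 and 9 bases before and 17 bases after the start, Cox7b2 held it 137, 128 and 120 bases before, and Cox7b held it 233 bases before and 6 bases after. CTTCCGG, found in 8.86% of promoters, was present in Cox6b1, 28 bases before the start, and in Cox8a, 5 bases before and 32 bases after it. TAACTG, found in 10.1% of promoters, had no match in the 7 windows. A match is a description of letters, and its use by a factor in these cells was not tested.

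Stages were set by marker genes that include no member. Each barcode with at least 5000 UMIs (12392 of 48939) was placed by the marker list it expressed most, in a germ cell stage or a somatic gate, and 364 of them entered neither. This makes each stage a range of marker scores rather than a cell type. The sums over the 6 libraries held 762 barcodes for spermatogonia, 1298 for early prophase spermatocytes, 1340 for pachytene spermatocytes, 1269 for late spermatocytes, 889 for early round spermatids, 2486 for later round spermatids, 629 for spermatids starting elongation and 3024 for elongating spermatids. Between 13.7% (elongating) and 53.7% (starting elongation) of the barcodes of a stage lay within 0.2 score units of the cut to another. Somatic barcodes were taken at any depth, with at least 3 markers of their list, and numbered 789 for Sertoli cells, 263 for macrophages and 158 for Leydig, peritubular and stromal cells, with median depths of 2179, 3403 and 7046 UMIs. Levels are UMIs per 1000000 UMIs of the sum (CPM), given as the mean over libraries ± SD (n = 6), and since a molecule is counted once at its 3′ end they are not divided by transcript length. Fewer molecules per cell and fewer molecules relative to the other RNA of the cell cannot be told apart on this scale.

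In 1 library the elongating gate stood apart. The markers of elongating spermatids summed to 82061 CPM in that gate of the library labelled HFD replicate 2, against 184855 to 238759 CPM in the other 5, while the 4 testis isoforms summed to 5478 CPM there against 645 to 1414 CPM. The markers of earlier stages were also higher in it, at 350 against 47.6 to 96.4 CPM for early round spermatids and at 758 against 125 to 263 CPM for pachytene spermatocytes. Several results on elongating spermatids are therefore also given without this library. The log2 differences by diet and the joint detection in single barcodes are given with it only. The spermatogonial gate held 1231 to 1909 CPM of its own markers. The 7 Sertoli cell markers summed to 102 to 142 CPM in it, against 5988 to 14634 CPM in their own gate, and the 8 macrophage markers to 2.15 to 9.94 CPM, with 3 of them at 0. Markers of later germ cells were also present in the spermatogonial gate, at 1747 to 2395 CPM for early prophase (4980 to 6267 CPM in their own gate), 455 to 730 CPM for pachytene and 3216 to 9141 CPM for elongating spermatids, and their part in the testis isoform levels there was not tested.

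The testis isoforms were more abundant than their counterparts in every germ cell stage from early prophase on, and each was highest in pachytene spermatocytes or, for Cox7b2, in pachytene and late spermatocytes alike. Cox8c, a small membrane subunit of complex IV, was the most abundant, at 3644 ± 251 CPM in pachytene spermatocytes. The lowest, median and highest library held 3235, 3657 and 3956 CPM. Cox6b2, the testis form of the subunit that faces the cytochrome c binding side, reached 1398 ± 235 CPM there, with 1033, 1475 and 1658 CPM in the lowest, median and highest library. Cox7b2, another small membrane subunit, reached 1070 ± 168 CPM, between 806 and 1308 CPM. Cyct was the least abundant of the 4 at 512 ± 45.7 CPM, between 437 and 571 CPM. The order Cox8c, Cox6b2 or Cox7b2, Cyct held in all 6 libraries in pachytene spermatocytes, but Cox6b2 and Cox7b2 changed places: Cox7b2 was the higher in the libraries labelled HFD replicates 2 and 3, with 1308 and 1124 CPM against 1200 and 1033 CPM of Cox6b2, and the lower in the other 4.

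**Figure D1:**
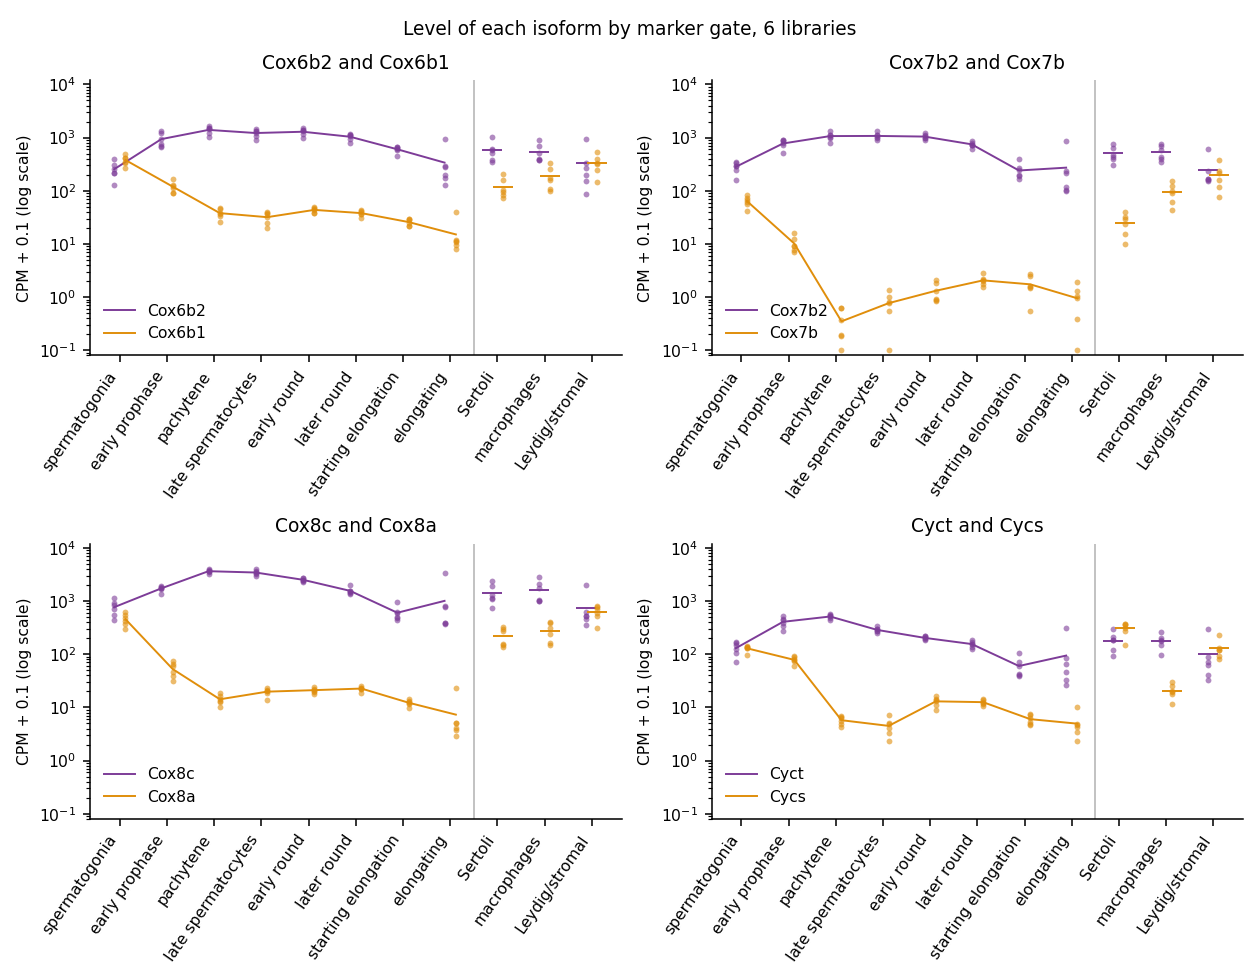
Level of the 4 isoform pairs by marker gate, as CPM + 0.1 on a log axis; each dot is 1 of the 6 libraries and the lines or bars give the mean over libraries, with germ cell stages left of the grey line and somatic gates right of it. The purple testis isoforms stay at or above 203 CPM on average from early prophase to early round spermatids, whereas the orange widely expressed isoforms fall to between 0.251 and 37.9 CPM in pachytene spermatocytes.

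The widely expressed isoforms showed a different order of stages. Their levels were highest in spermatogonia, at 455 ± 122 CPM for Cox8a, 379 ± 80.2 CPM for Cox6b1, 129 ± 16.1 CPM for Cycs and 63.7 ± 14.6 CPM for Cox7b. In pachytene spermatocytes they were 14.1 ± 3.02, 37.9 ± 7.66, 5.64 ± 1.04 and 0.251 ± 0.232 CPM, in the same order. The lowest spermatogonial library lay above the highest pachytene library for each of the 4. For Cox7b, the X-linked subunit, the 6 pachytene sums held 10 UMIs in all, and the lowest, median and highest library were at 0, 0.183 and 0.534 CPM against 41, 64.2 and 82.7 CPM in spermatogonia. The count of 0, in the library labelled HFD replicate 3, allows a level of up to 0.268 CPM (3 counts, counting error only).

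The loss of the widely expressed forms did not start with the same gene everywhere. From spermatogonia to early prophase spermatocytes, Cox8a went from 455 to 52.5 CPM, a ratio of 0.115, and Cox7b from 63.7 to 10.1 CPM, a ratio of 0.158. Cox6b1 kept a ratio of 0.316 (379 to 120 CPM) and Cycs a ratio of 0.606 (129 to 78.1 CPM). All 4 were lower in early prophase in 6 of 6 libraries. From early prophase to pachytene the order was different, with ratios of 0.0248 for Cox7b, 0.0721 for Cycs, 0.268 for Cox8a and 0.317 for Cox6b1, so that most of the Cycs loss fell in the later interval and most of the Cox8a loss in the earlier one. The difference in timing between genes was not tested.

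Cox4i1 followed neither course. It held 1579 ± 319 CPM in spermatogonia, 1312 ± 291 CPM in early prophase, 1632 ± 276 CPM in pachytene and 1009 ± 160 CPM in early round spermatids. The spermatogonial and pachytene ranges over libraries overlapped, with 1151 to 1903 CPM against 1254 to 1949 CPM. Within libraries the pachytene level was the higher in 5 of 6, with a ratio of the means of 1.03. Cox4i2 was nearly absent: 20 of all 429495465 UMIs came from it. No germ cell sum held more than 3 of its UMIs over the 6 libraries, and early round and elongating spermatids held 0, which allows up to 0.096 and 0.0577 CPM (3 counts over the group). The highest value was in Leydig, peritubular and stromal cells, where 2 UMIs gave 22.2 CPM in the library labelled LFD replicate 3, 1 UMI gave 1.83 CPM in LFD replicate 2 and 4 libraries had none. No testis isoform of subunit 4 is among the members, and the Cox4i2 share of the subunit 4 pair was at most 0.0388% in any library and germ cell stage.

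Free RNA bears on the low end of these values, since UMIs of abundant germ cell mRNAs also reach barcodes of cells that do not make them. In the macrophage gate, which should lack the testis isoforms, Cox6b2 stood at 542 ± 210 CPM, Cox7b2 at 540 ± 173 CPM, Cox8c at 1611 ± 730 CPM and Cyct at 178 ± 54.2 CPM, with a median of 3403 UMIs per barcode. Relative to the barcodes with the fewest UMIs of each library (the shallowest 10%), these 4 levels were in nearly 1 ratio, 0.582, 0.541, 0.578 and 0.558, as they were in the Sertoli gate (0.616, 0.509, 0.519 and 0.57) and in the Leydig, peritubular and stromal gate (0.342, 0.251, 0.268 and 0.302). In spermatogonia (median 11482.5 UMIs) the ratios were 0.273 for Cox6b2, 0.287 for Cox7b2, 0.278 for Cox8c and 0.411 for Cyct. The spermatogonial levels were 0.486, 0.54, 0.507 and 0.773 times those of the macrophage gate, and only Cyct was above it, in 1 of 6 libraries. By the UMIs of protamine and transition protein genes in the macrophage gate, free RNA was estimated at 11.5% to 14.7% of the spermatogonial UMIs. With that amount subtracted, the testis isoform made up 2.99% to 42.8% of the spermatogonial UMIs of its pair for Cox6b2, 48.4% to 81.5% for Cox7b2, 19% to 65.4% for Cox8c and 21.6% to 55.4% for Cyct. The spermatogonial levels were thus below those of the shallower macrophage gate but above this estimate, and they were not read as expression or as background.

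Early prophase spermatocytes (median 8625.5 UMIs) were the first stage in which testis isoforms exceeded the macrophage gate. Against the macrophage gate of the same library, Cox6b2 was 1.92 times, Cox7b2 1.56 times and Cyct 2.64 times as high, each in 6 of 6 libraries, whereas Cox8c was 1.25 times as high and above it in 3 of 6. Their ratios to the shallowest barcodes were no longer alike, at 1.33 for Cyct, 1.01 for Cox6b2, 0.804 for Cox7b2 and 0.644 for Cox8c. In pachytene spermatocytes all 4 were above the macrophage gate in 6 of 6 libraries, by 2.84 times for Cox6b2, 2.1 times for Cox7b2, 2.62 times for Cox8c and 3.17 times for Cyct. In spermatogonia, Cox6b1 was 2.26 times, Cox8a 1.81 times and Cycs 6.86 times the macrophage level, each in 6 of 6 libraries, and Cox7b was 0.734 times that level and above it in 1. The widely expressed isoforms are genes that macrophages express themselves. From pachytene to elongating spermatids, Cycs and Cox7b had mean levels below those of the shallowest barcodes (18.4 and 4 CPM). By the estimate above, free RNA was 2.94% to 8.72% of the pachytene UMIs. It was 3.83% to 6.25% of those of early round and 8.49% to 12.8% of those of elongating spermatids. The shares below were also computed with it subtracted, and its part in these low levels was not tested.

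The balance within a pair was followed as the testis isoform share, the UMIs of the testis isoform in percent of the UMIs of both genes. From spermatogonia to pachytene spermatocytes the share rose in 6 of 6 libraries for each of the 4 pairs. Cox6b2 rose from 39.6% to 97.4% of its pair, a difference of 57.8 ± 10.2 percentage points (SD, n = 6). Cyct rose from 49.3% to 98.9%, by 49.6 ± 9.46 points, Cox8c from 61.6% to 99.6%, by 38 ± 12.6 points, and Cox7b2 from 80.9% to 100%, by 19.1 ± 5.89 points. Each rise gave p = 0.0312 in an exact two-sided sign-flip permutation test over libraries, the smallest that 6 libraries can give, and an adjusted p of 0.0469 over 12 tests. With free RNA subtracted, the rises were 71.9, 59, 53.9 and 30.7 points in the same order of pairs, and the adjusted p was 0.0417 (exact permutation test). Other settings left out barcodes near a cut or the 5% with the most UMIs, or averaged shares over barcodes. The rises were then 58.3 to 66.6, 50.1 to 56.5, 38.4 to 48 and 19.2 to 23.3 points, still in 6 of 6 libraries. The unadjusted p stayed at 0.0312, but the adjusted p was 0.0536 to 0.0625 (exact permutation test), which misses the threshold. At this smallest p, the adjusted p depends on how many of the 12 tests reach it.

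The spermatogonial share differed widely between libraries and the pachytene share did not. For Cox6b2 it was 38.4%, 38.7% and 44.5% in the libraries labelled HFD replicates 1 to 3 and 38.1%, 54.3% and 23.6% in LFD replicates 1 to 3. In pachytene spermatocytes the same libraries held 97.6%, 97%, 97.5%, 97.2%, 97.1% and 97.7%. LFD replicate 3 had the lowest and LFD replicate 2 the highest spermatogonial share for Cox6b2, Cox7b2 and Cyct, and these libraries also had the lowest and the highest level of Cox6b2 in that gate (126 and 399 CPM). Early prophase lay between, at 88.2% ± 3.88 for Cox6b2, 83.4% ± 3.61 for Cyct, 97% ± 1.23 for Cox8c and 98.6% ± 0.805 for Cox7b2.

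**Figure D2:**
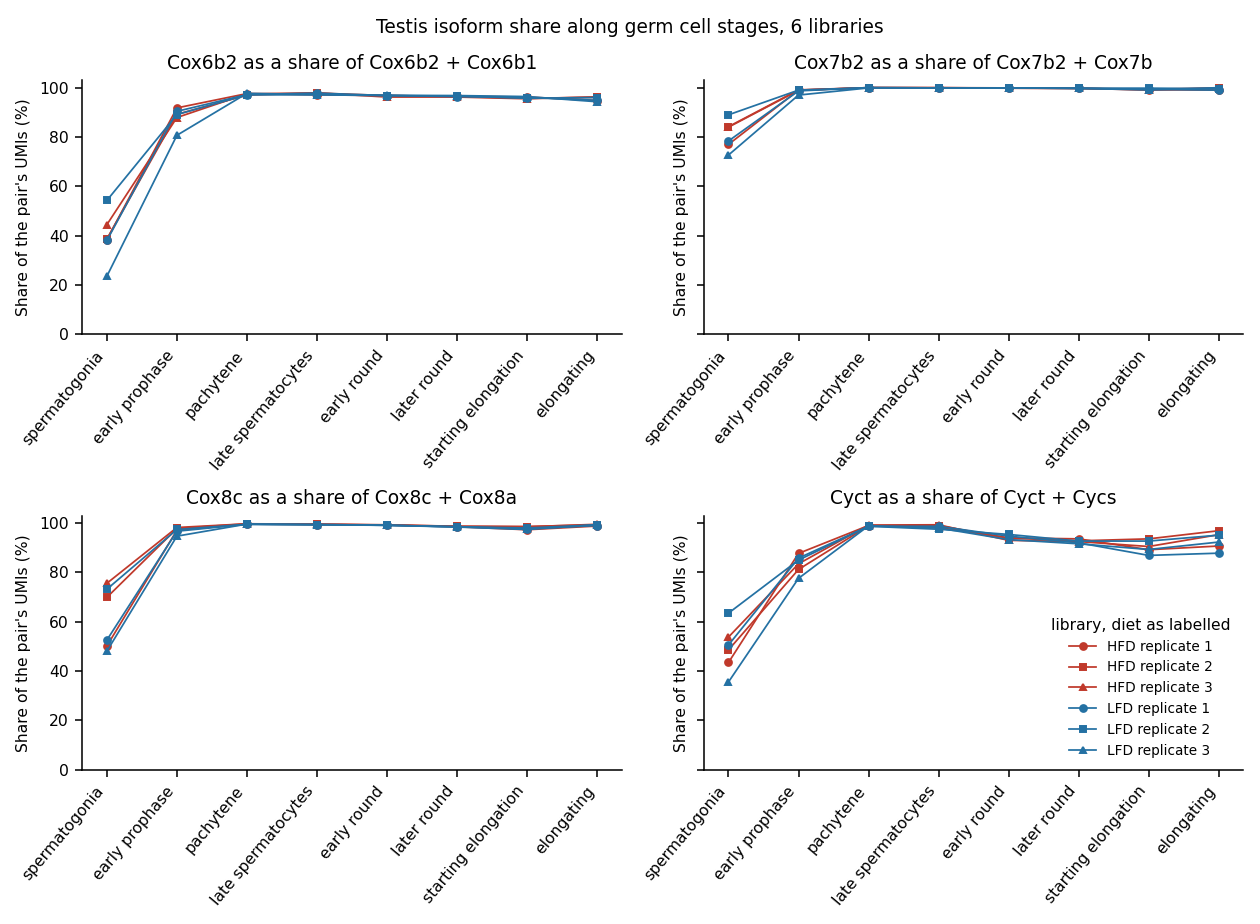
Testis isoform share of each pair, in percent of the UMIs of both genes, along the 8 germ cell stages; each line is 1 library, red for those labelled HFD and blue for those labelled LFD, with the replicate as the marker shape. All 6 lines climb to above 96% by pachytene in every pair, and the Cyct share then declines to 94.1% on average in early round spermatids.

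From pachytene spermatocytes to early round spermatids all 4 testis shares were lower again, by most for cytochrome c. The Cyct share was 99%, 98.9%, 99.2%, 98.7%, 98.7% and 98.9% in pachytene spermatocytes and 94%, 93.9%, 93%, 94.7%, 95.4% and 93.3% in early round spermatids, in the library order given above, so the 2 stages did not overlap. The difference was −4.84 ± 1.07 points. The other pairs moved by less than 1 point, with −0.656 ± 0.392 for Cox6b2, −0.443 ± 0.0379 for Cox8c and −0.0892 ± 0.0531 for Cox7b2. All 4 shares were lower in 6 of 6 libraries, again with an exact sign-flip permutation p of 0.0312 and an adjusted p of 0.0469. With free RNA subtracted, the differences were −5.03 points for Cyct, −0.668 for Cox6b2, −0.457 for Cox8c and −0.0899 for Cox7b2. All 4 calls held there, each with an adjusted p of 0.0417 (exact permutation test). Under 3 other alternatives no call at this step held. The Cyct difference was −4.83 points without barcodes near a cut, −4.58 without the 5% of barcodes with the most UMIs and −5.01 as a mean over barcodes, with adjusted p of 0.0536, 0.0625 and 0.0625 in the exact permutation test, as for Cox8c. Cox6b2 stood at −0.315 points without the barcodes of most UMIs (adjusted p = 0.3, exact permutation test) and at −0.0669 as a mean over barcodes (adjusted p = 0.812, exact permutation test), and Cox7b2 at −0.0745 and −0.123 (adjusted p = 0.141 and 0.338, exact permutation test).

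Both genes moved with the cytochrome c share. Cyct went from 512 CPM in pachytene to 286 CPM in late spermatocytes and 203 CPM in early round spermatids, lower in 6 of 6 libraries at each step. Cycs went from 4.39 ± 1.66 CPM in late spermatocytes to 12.9 ± 2.59 CPM in early round spermatids, a ratio of 2.93 and higher in 6 of 6 libraries, on 181 and 406 UMIs. Its early round values were 13.4, 14.2 and 16.5 CPM in libraries labelled HFD and 11.2, 8.99 and 13 CPM in those labelled LFD. These levels lie below the mean of 18.4 CPM in the shallowest barcodes. That mean hides a wide spread, since spermatogonial Cycs was 2.87 to 18.9 times the shallowest level of its library. The early round level was therefore not below the shallowest level in every library. With free RNA subtracted, the early round share of Cyct was 92.6% to 95.4% over the libraries. The share of Cyct was 92.5% ± 0.689 in later round spermatids and 90.4% ± 2.46 in spermatids starting elongation. Cyct was there 0.952 and 0.348 times its level in the macrophage gate and above it in 1 and 0 of 6 libraries. These stages are much deeper than that gate, with medians of 35359 and 40558 against 3403 UMIs, so its level is no measure of their free RNA. By the protamine and transition protein estimate, free RNA was 3.99% to 5.38% and 3.37% to 5% of their UMIs.

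From early round to elongating spermatids no share passed the test in the main setting. The differences were −1.31 ± 1.01 points for Cox6b2 (adjusted p = 0.0833, exact sign-flip permutation test), −1.05 ± 3.68 for Cyct (adjusted p = 0.58), −0.334 ± 0.426 for Cox7b2 (adjusted p = 0.15) and 0.0314 ± 0.25 for Cox8c (adjusted p = 0.812). Without the library labelled HFD replicate 2 they were −1.43, −1.87, −0.392 and 0.0115 points. The Cox6b2 difference passed with a minimum of 2500 or of 10000 UMIs per barcode, at −0.734 and −1.4 points (exact permutation test, adjusted p = 0.0469 and 0.0417). With free RNA subtracted, Cox8c passed at 0.349 points (adjusted p = 0.0417, exact permutation test), and Cox6b2, Cyct and Cox7b2 stood at −2.02, −7.82 and −0.69 points (adjusted p = 0.075, 0.25 and 0.17, exact permutation test). The Cyct value rests largely on the library labelled LFD replicate 3, with 112 barcodes in this gate. Its subtracted Cyct share was 53.2% in elongating spermatids, against 87.5% to 96.7% in the other 5 libraries. The levels themselves were low: Cox8c had 366, 574 and 3342 CPM in the lowest, median and highest library, and Cox6b2 129, 237 and 963 CPM. The highest value of each was in HFD replicate 2, and in the other 5 libraries all 4 testis isoforms were below their macrophage gate. That gate is shallower, with a median of 3403 UMIs against 13847.5 in elongating spermatids.

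The same 3 steps were tested for each gene across the 16941 genes that passed the filter on low counts, with edgeR. Of these genes, 72.4% were called (adjusted p under 0.05), 32.7% higher and 39.7% lower, from spermatogonia to pachytene spermatocytes, 71.3%, 33.1% higher and 38.2% lower, from pachytene to early round spermatids, and 69.4%, 36.8% higher and 32.6% lower, from early round to elongating spermatids. Most genes thus changed at each step, and a call alone does not set a member apart. The median log2 change of all genes was −0.29, −0.07 and 0.18 with TMM scaling, and −0.88, 0.13 and 0.45 with DESeq2 size factors. At the first step this scaling turned the calls from 5538 higher and 6721 lower into 3943 higher and 8993 lower. Cox4i2 was too low to be tested.

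At the first step 5 of the 9 tested members were called higher and 4 lower. The testis isoforms gave log2 changes of 2.86 (SE 0.20) for Cox6b2, 2.69 (SE 0.19) for Cox8c, 2.39 (SE 0.20) for Cyct and 2.34 (SE 0.16) for Cox7b2, with edgeR adjusted p of 3.03e-17, 1.03e-17, 4.96e-15 and 1.67e-17. Between 2.31% and 7.48% of all genes rose by more. The median of the 4 was 2.54, against −0.29 over all genes.

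The widely expressed isoforms fell at this step. Cox7b fell by 7.90 on the log2 scale (SE 0.33, edgeR adjusted p = 2.2e-25), and 0.85% of all genes fell by more. Cox8a fell by 4.60 (SE 0.18, adjusted p = 1.93e-26), Cycs fell by 4.09 (SE 0.18, adjusted p = 7.39e-25) and Cox6b1 fell by 2.91 (SE 0.14, adjusted p = 8.22e-23). Their median was −4.34. The X chromosome as a whole moved with Cox7b: of 596 X-linked genes tested, 468 were called lower and 1 higher, with a median log2 change of −5.14 against −0.23 for the autosomes. The part of the X chromosome in the change of Cox7b was not tested, and Cox8a, Cycs and Cox6b1 are autosomal. Cox4i1 gave 0.45 (SE 0.14, edgeR adjusted p = 0.00385), but −0.15 with DESeq2 or its size factors, so its direction depends on the scaling, and its CPM ratio was 1.03.

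**Figure D3:**
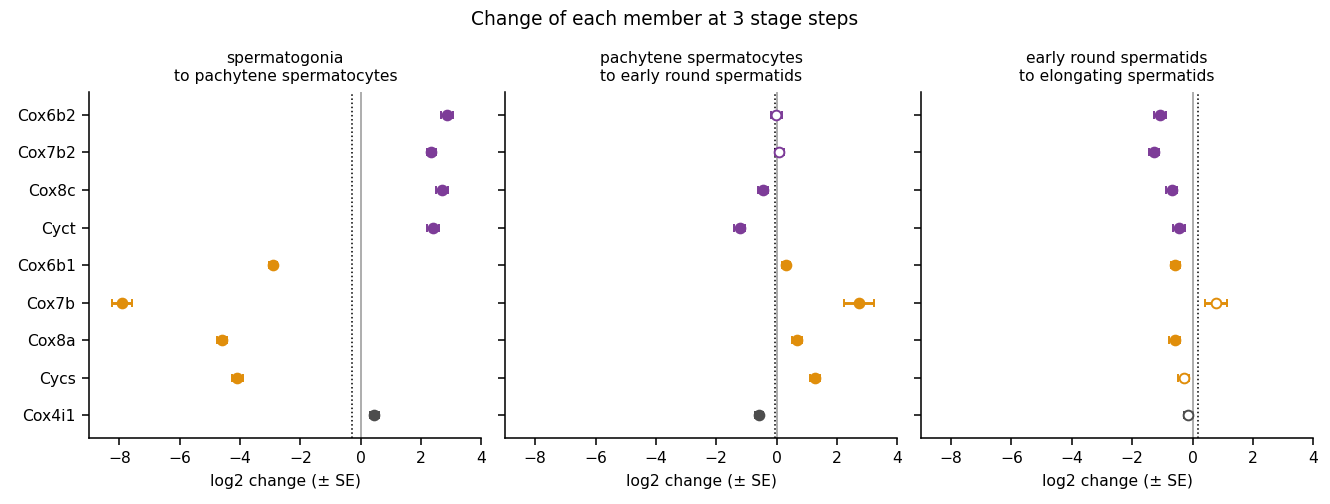
log2 change of the 9 tested members at 3 stage steps, with SE bars, from edgeR; purple marks testis isoforms, orange widely expressed isoforms and grey Cox4i1, open dots did not pass the adjusted p of 0.05 and the dotted line is the median of all genes tested. The purple and orange groups separate at the first step, between 2.34 and 2.86 against −7.90 and −2.91, and all 4 orange dots lie right of 0 at the second.

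From pachytene to early round spermatids the 4 widely expressed isoforms were called higher. The log2 changes were 2.73 (SE 0.49) for Cox7b, 1.27 (SE 0.18) for Cycs, 0.67 (SE 0.17) for Cox8a and 0.31 (SE 0.14) for Cox6b1, with edgeR adjusted p of 2.61e-06, 1.56e-08, 0.000442 and 0.0448. The first 3 were called in all 14 settings and Cox6b1 in 11 of them. The rise of Cox7b was from 10 UMIs to 39 UMIs over the 6 libraries and reached 1.22 CPM, under the 4 CPM of the shallowest barcodes. X-linked genes rose in number at this step, with 385 of 596 called higher and a median of 2.62. Of the testis isoforms, Cyct fell by 1.23 (SE 0.19, adjusted p = 1.25e-07) and Cox8c fell by 0.44 (SE 0.17, adjusted p = 0.0227), the latter called in 5 of 14 settings. Cox6b2 (−0.01, adjusted p = 0.971) and Cox7b2 (0.09, adjusted p = 0.637) did not pass, and with DESeq2 they stood at 0.19 (adjusted p = 0.276) and 0.29 (adjusted p = 0.0177). Cox4i1 fell by 0.59 (SE 0.14, adjusted p = 0.000208), called in all 14 settings.

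From early round to elongating spermatids 6 members were called lower and 0 higher by edgeR. Cox7b2 fell by 1.27 (SE 0.16, adjusted p = 1.12e-09), Cox6b2 fell by 1.07 (SE 0.19), Cox8c fell by 0.69 (SE 0.18), Cox8a fell by 0.59 (SE 0.18), Cox6b1 fell by 0.57 (SE 0.15) and Cyct fell by 0.45 (SE 0.19, adjusted p = 0.0332). Without the library labelled HFD replicate 2, Cox4i1 was called lower too (−0.36) and Cox7b was called higher (1.05). In CPM, Cox7b went the other way over the 6 libraries, from 1.22 to 0.849 CPM and higher in 1 of 6. These levels rest on 39 and 61 UMIs and lie under the mean level of the shallowest barcodes. With DESeq2, or with its size factors, 3 members were called lower (Cox6b2, Cox7b2 and Cox8c) and 1 higher (Cox7b).

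Other genes of the terminal respiratory chain were called in both directions, as were genes at large. Of all genes tested, 32.7% were called higher and 39.7% lower at the first step, and 33.1% and 38.2% at the second. Of 9 tested further nuclear subunits of complex IV, 4 were called higher and 2 lower from spermatogonia to pachytene, with a median log2 change of 0.27. Cox7a2, the common subunit 7A, rose by 1.03, while Ndufa4, a subunit once assigned to complex I, fell by 3.91 and Cox7a1, the heart and muscle form, fell by 4.99. The 3 mitochondrially encoded subunits gave 0 higher and 2 lower at that step and 0 higher and 3 lower at the next, where mt-Co3 fell by 1.84, mt-Co2 fell by 1.64 and mt-Co1 fell by 1.53. Of 10 complex III subunits, 6 were called higher and 4 lower at the first step, led by Uqcrq (1.77), and 1 higher and 6 lower at the second, where Uqcrc2 fell by 2.04. Of 20 assembly and cytochrome c maturation factors, 8 rose and 7 fell, and then 5 rose and 11 fell. Hccs, the X-linked enzyme that attaches haem to cytochrome c, fell by 7.10 at the first step and stood at −0.15 (adjusted p = 0.85) at the second.

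Other enzymes with a widely expressed X-linked gene and an autosomal testis gene gave a comparison for Cox7b. Pdha1, the X-linked subunit of pyruvate dehydrogenase, fell by 7.58 from spermatogonia to pachytene while its testis form Pdha2 rose by 2.74. Pgk1, X-linked phosphoglycerate kinase, fell by 2.30 and its testis form Pgk2 rose by 1.31, and then by 2.12 and 2.36 at the later steps. Ldha and Ldhc, both autosomal lactate dehydrogenase genes, are the remaining pair of this list. Of its 6 genes, 4 were called higher and 2 lower at the first step, against 32.7% and 39.7% of all genes. In pachytene Ldha was at 1150 CPM against 207 CPM in spermatogonia, a log2 change of 2.91 (SE 0.18), so the widely expressed gene of that pair rose.

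Within single barcodes the testis and the widely expressed isoform were found together in a larger part of spermatogonia than of pachytene spermatocytes in each pair. Each barcode was thinned to 5000 UMIs to compare stages of different depth. Both genes of the pair were then detected in 38.2% of spermatogonial barcodes for Cox6b2 and Cox6b1, 15% for Cox7b2 and Cox7b, 50.5% for Cox8c and Cox8a and 14.7% for Cyct and Cycs. In the macrophage gate, on 36 barcodes of at least 5000 UMIs (median 5925.5), the same percentages were 38.9%, 25%, 63.9% and 8.33%, and the spermatogonial percentages were at or below them for the first 3 pairs. In early prophase joint detection was 28.6%, 4.31%, 20.2% and 16.9%, so that for Cyct and Cycs it was no lower than in spermatogonia, and in pachytene spermatocytes it was 16.6%, 0.299%, 7.99% and 3.28%. From late spermatocytes to elongating spermatids it lay between 6.55% and 17.7% for Cox6b2 and Cox6b1. Before thinning the pachytene values were 60.1%, 0.672%, 39.3% and 18.7%, at a median of 35706 UMIs. After thinning, barcodes with a UMI of the widely expressed isoform, with or without the testis isoform, were fewer in pachytene spermatocytes than in spermatogonia. They went from 76.1% to 16.9% of the barcodes of the stage for Cox6b1 and from 44.9% to 3.51% for Cycs.

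**Figure D4:**
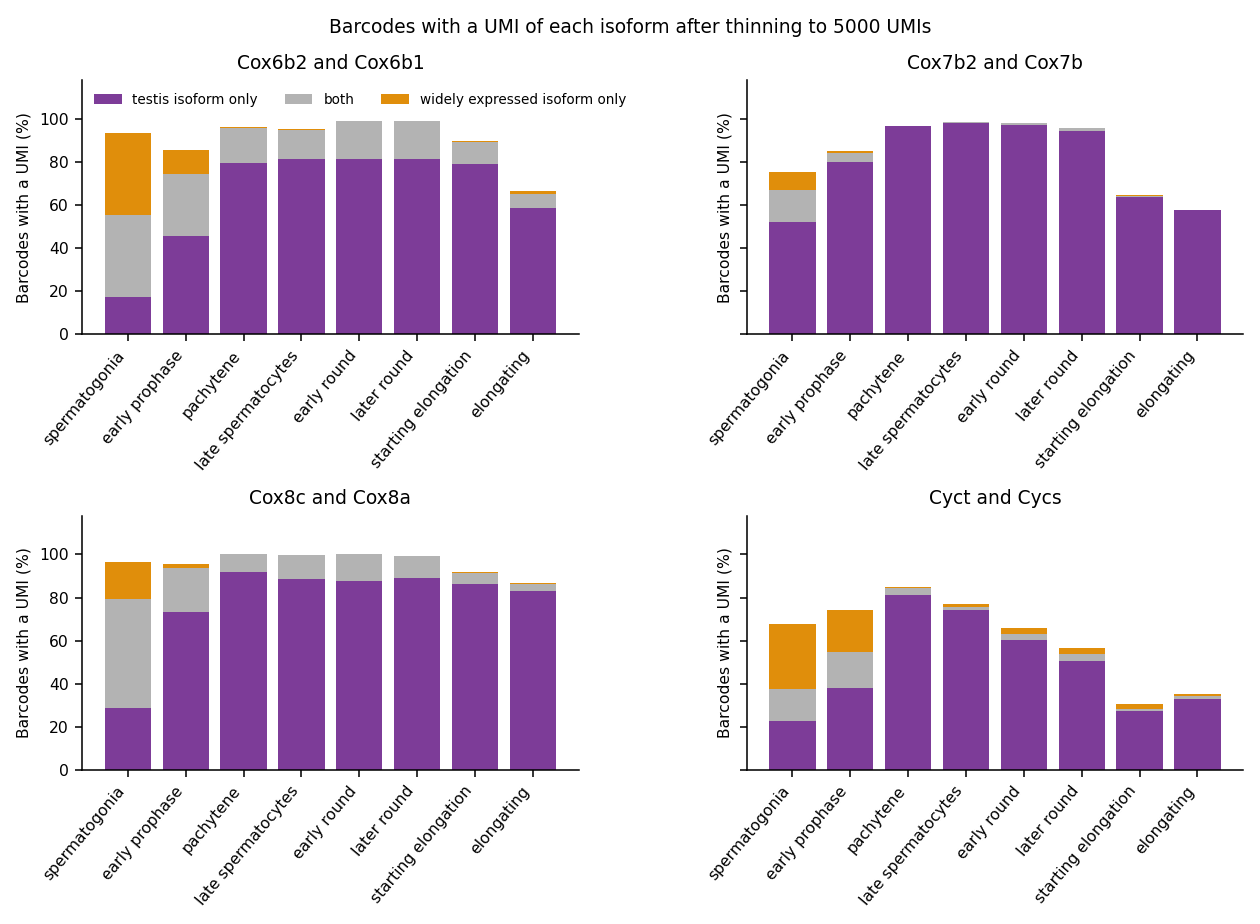
Barcodes with a UMI of the testis isoform only (purple), of both genes (grey) or of the widely expressed isoform only (orange), in percent of the barcodes of each germ cell stage after thinning to 5000 UMIs, summed over the 6 libraries. The orange and grey parts shrink from spermatogonia to pachytene spermatocytes, where both genes were found in 0.299% of barcodes for Cox7b2 and Cox7b and in 16.6% for Cox6b2 and Cox6b1.

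Across the 48 sums of 6 libraries and 8 stages the genes of the 4 pairs fell into 2 sets by likeness of pattern. This is given as a description without a test, since sums of 1 library share its depth and free RNA. The Pearson r of log2(CPM + 1) was 0.70 to 0.96 among the 4 testis isoforms, 0.88 to 0.98 among the 4 widely expressed isoforms and −0.48 to 0.29 between the sets. Cox4i1 belonged to neither set, with r of 0.40 to 0.80 to the testis isoforms and 0.33 to 0.65 to the widely expressed isoforms. Among 3719 genes with a mean of at least 50 CPM, the gene most like Cox6b2 was Calm3 (r = 0.953), a calmodulin gene, followed by Syngr4, Psmc3ip, Kctd19 and Cenpv. Those most like Cox7b2 were Snx1 (0.981), Glt8d1, Hspa2, Pih1d2 and Rpl10l (0.971), where Hspa2 is a chaperone of spermatocytes and Rpl10l is the autosomal testis copy of a ribosomal protein gene. Those most like Cox8c were Mgat4d (0.973), Adam2, Iqcg, Trpd52l3 and Acyp1. Those most like Cyct were Khdrbs3 (0.980), Mrpl53, Thoc7, Cwc15 and Mrps28, of which Mrpl53 and Mrps28 encode mitochondrial ribosomal proteins.

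The diets were compared to ask whether 2 weeks of HFD altered these genes or the switch. With edgeR, 0% of genes were called in each of the 9 sums (8 stages and all barcodes), and no member was called, while between 130 and 928 genes had an unadjusted p under 0.05. DESeq2 called 1 gene in spermatogonia and 0 in the other 8 sums. Members differed by −0.61 (Cycs in late spermatocytes) to 0.59 (Cyct in spermatids starting elongation) on the log2 scale in the 7 stages before elongating spermatids and by −0.35 to 0.42 in all barcodes. In pachytene spermatocytes Cox6b2 had 1549, 1200 and 1033 CPM in libraries labelled HFD and 1658, 1510 and 1440 CPM in those labelled LFD, a log2 difference of −0.25 (SE 0.18, edgeR adjusted p = 0.978), and the groups overlapped. Cyct had 514, 571 and 540 CPM against 521, 488 and 437 CPM, a log2 difference of 0.19 (SE 0.12, edgeR adjusted p = 0.978), also overlapping. Same-numbered libraries deviated together in 4 of the 9 sums, and with the number as a block edgeR called 1 gene in pachytene, 8 in early round, 3 in starting elongation and 1 in elongating spermatids, with no member among them. In pachytene the blocked difference of Cox6b2, lower in the library labelled HFD in 3 of 3 numbers, was −0.32 (SE 0.14, edgeR adjusted p = 0.657).

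In elongating spermatids the log2 differences of the 8 tested members lay between 0.41 (Cycs) and 1.30 (Cyct, SE 0.50), and none passed (edgeR adjusted p = 0.845 for each). Cyct had 45.9, 308 and 85.6 CPM in libraries labelled HFD and 32.9, 65.7 and 26.8 CPM in those labelled LFD. The highest of the 6 was HFD replicate 2, the library whose gate stood apart, and without it the groups still overlapped. Cyct was higher in the library labelled HFD in 3 of 3 replicate numbers, and its blocked difference was 1.16 (SE 0.37, edgeR adjusted p = 0.304). With the number as a block, the other 7 members lay between 0.43 (Cox4i1) and 0.83 (Cox7b2 and Cox8a), higher in 3 of 3 numbers and not called. Without a block the smallest adjusted p of any member in any sum was 0.601, for Cox4i1 in early round spermatids (−0.31, SE 0.14). Its values were 1131, 805 and 802 CPM in libraries labelled HFD and 1126, 1089 and 1104 CPM in those labelled LFD, where HFD replicate 1 was the highest and the other HFD libraries the lowest.

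**Figure D5:**
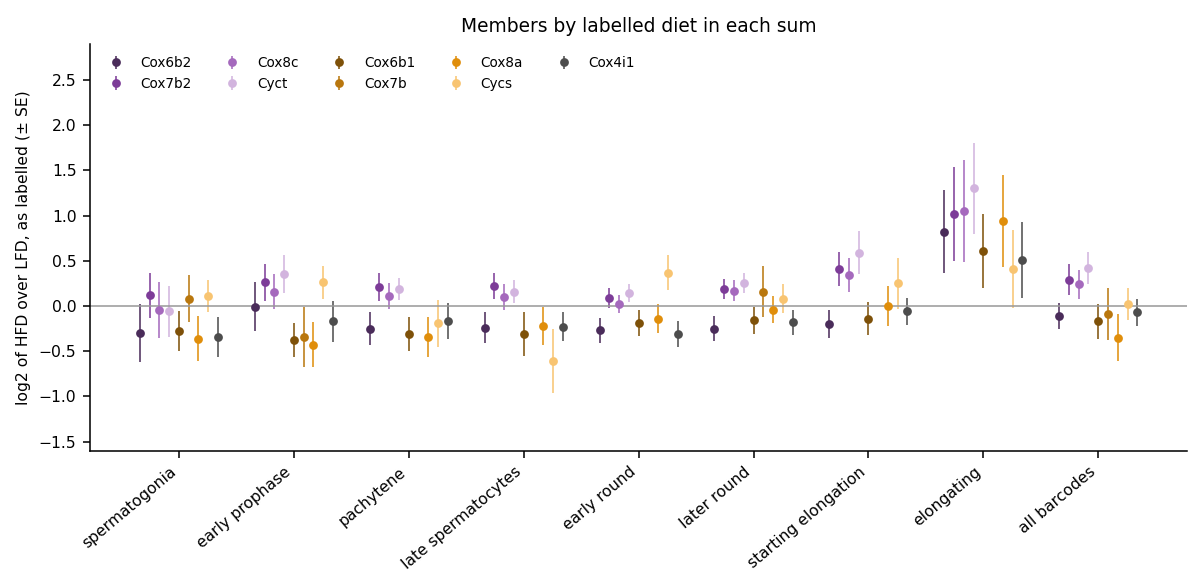
log2 ratio of libraries labelled HFD to libraries labelled LFD for each tested member, with SE bars, in 8 germ cell stages and in all barcodes (edgeR, 3 libraries per group). No member passed; the 8 members in elongating spermatids lie between 0.41 and 1.30, with SE of 0.41 to 0.56.

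The absence of calls rested in part on HFD replicate 1. Without this library edgeR called 752 genes in early round spermatids, 6.42% of those tested, with 592 lower (5.05%) and 160 higher (1.37%) in libraries labelled HFD. Cox4i1 (−0.52, SE 0.07, edgeR adjusted p = 0.00768) and Cox6b2 (−0.45, SE 0.09, edgeR adjusted p = 0.0198) were the 2 members among them, both lower. It then also called 6 genes in spermatids starting elongation and 2 in all barcodes, and without HFD replicate 2 it called 1 in spermatids starting elongation, none of them a member. With 2 libraries against 3, the cause of the difference was not tested.

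No difference in testis isoform share between diets passed in the 8 tests made. In pachytene spermatocytes the means of libraries labelled HFD and LFD were 99% and 98.8% for Cyct, 97.4% and 97.3% for Cox6b2, 99.7% and 99.6% for Cox8c and 100% and 100% for Cox7b2, with adjusted p between 0.533 and 1 in an exact two-sided permutation test of 3 against 3, which cannot go below 0.1 before adjustment. In elongating spermatids they were 94.3% ± 3.2 and 91.7% ± 3.67 for Cyct (adjusted p = 0.64, exact permutation test), a difference of 2.55 points that was 2.89 within replicate 1 and 2.38 within replicates 2 and 3. Without HFD replicate 2 this difference was 1.25 points. A p that misses the threshold in a design of this size does not show that the diets gave the same share.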

How the data were processed

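Whole testes of 6 mice, 3 per labelled diet, had been profiled by 10x Genomics single-cell RNA sequencing, 1 library per mouse. The authors deposited raw UMI counts per gene and barcode, made with Cell Ranger 6.0.1 against mm10, without normalization. The labels name version 2 of the kit chemistry, and the study's methods name another. The names of the deposited tables give the opposite diet to the labels for all 6 libraries, and in the study's supplement the barcode numbers checked go with the table names. Groups were kept as labelled.

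From these counts, UMIs were summed per library and stage. Each barcode with at least 5000 UMIs was placed by the mean standardized log level of 90 marker genes in 11 lists, without members. A somatic barcode, of any depth, needed at least 3 markers of its list and a score of at least 1. No doublet caller was run, and leaving out the 5% of barcodes with the most UMIs was an alternative. Sums were tested with edgeR 4.0.16 (quasi-likelihood, TMM scaling, filterByExpr) in R 4.3.3, with Benjamini-Hochberg adjustment over all genes. The stage fit took library as a term, and the diet fits compared 3 libraries with 3 in each sum. DESeq2 1.42.0 was an alternative. Shares were tested by exact permutation tests in Python 3.11.15 with scipy 1.17.1. The edgeR steps were tested on simulated data first.

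The members and the lists were chosen with earlier results of these data known. Named genes are all 10 members, the 5 genes most like each testis isoform, and in each fixed list and step at most 3 called genes by size of change. The enzyme pairs were all named, which was decided after their values were seen. Depth was 39196921 to 95845514 UMIs per library. Intervals and limits from counts of 0 cover counting error only.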

Additional observations from a re-analysis of the deposited data

Results flagged for a closer look

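In elongating spermatids the library labelled HFD replicate 2 lay far from the other 5. Its elongating markers summed to 82061 CPM against 184855 to 238759 CPM, and its 4 testis isoforms to 5478 CPM against 645 to 1414 CPM. The gap to the nearest library passed Dixon's 95% limit for 6 values in both measures, which chance alone passes in about 1 of 20 groups, and the part of this library's gate in the levels of the members was not tested.

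The 36547 barcodes with fewer than 5000 UMIs, which entered no stage, also held the members. The lowest library had a testis isoform share of 94.3% for Cox6b2, 99.1% for Cox7b2, 98.1% for Cox8c and 88.6% for Cyct in these barcodes, above the spermatogonial share of every library.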

How the results depend on the processing

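Leaving out 1 library gave share rises from spermatogonia to pachytene of 54.5 to 60.8 (Cox6b2), 17.5 to 20.7 (Cox7b2), 35.3 to 40.8 (Cox8c) and 46.9 to 52.5 points (Cyct), then −0.732 to −0.523, −0.103 to −0.0755, −0.453 to −0.434 and −5.15 to −4.56 points to early round, and −1.59 to −1.05, −0.418 to −0.225, −0.00781 to 0.124 and −1.87 to 0.12 points to elongating spermatids. Exact tests on 5 libraries cannot go below 0.0625, so no call could hold. By diet these ranges were −0.0687 to 0.207, 0.0179 to 0.0469, 0.0798 to 0.14 and 0.137 to 0.316 in pachytene and 0.242 to 1.12, −0.256 to 0.284, −0.18 to 0.199 and 0.591 to 4.34 in elongating spermatids. In the same order of pairs, the first and second steps were 66.6 and −0.733, 23.3 and −0.0889, 48 and −0.465, and 56.5 and −4.83 points without barcodes near a cut. They were 58.5 and −0.315, 19.2 and −0.0745, 38.4 and −0.406, and 50.1 and −4.58 without the deepest barcodes, and 58.3 and −0.0669, 20.5 and −0.123, 41.3 and −0.434, and 52.2 and −5.01 as a mean over barcodes. These 24 values lost the call. The first-step values all kept p = 0.0312 in the exact permutation test, the smallest that 6 libraries can give. At that p the adjusted value depends on how many of the 12 tests reach it. What moved other tests off it was not tested.

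With a minimum of 2500 UMIs the Cox7b2 second step was −0.0729, and at the third step Cox6b2 was −0.734 (now called) and Cyct 0.254 (reversed). With 10000 UMIs, Cox6b2 was −1.4 (now called) and Cox8c −0.0274 (reversed). With free RNA subtracted, Cox8c was 0.349 (now called). Differences by diet changed sign at 2500 UMIs for Cox6b2 (−0.000259 in pachytene, −0.289 in elongating spermatids), at 10000 UMIs in pachytene for Cox6b2 (−0.0339) and Cox7b2 (−0.00209), and as a mean over barcodes for Cox7b2 in elongating spermatids (0.183), none of them called.

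Of the log2 changes, Cox4i1 at the first step became −0.15 with DESeq2 and with its size factors. Cox6b2 at the second step became 0.08 with either minimum, 0.16 without the deepest barcodes, 0.19 with DESeq2 and with its size factors and 0.22 without a filter. At the third step Cycs became 0.01 with DESeq2 and with its size factors, and Cox4i1 0.03 without barcodes near a cut, 0.15 with the size factors, 0.16 with DESeq2 and 0.07 without a filter. Leaving out 1 library moved Cox6b2 at the second step between −0.05 and 0.14 and Cox4i1 at the third between −0.36 and −0.01. At the third step 1 member was called higher with 10000 UMIs, and 1 higher and 3 lower with DESeq2, its size factors or no filter. Without 1 library 0 to 1 were higher and 5 to 7 lower.

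The labels do not say that replicate numbers pair the libraries. The deviations of same-numbered libraries correlated at 0.57, −0.05 and 0.10 in all barcodes, and every pair was over 0.1 in 4 of 9 sums: pachytene (0.21, 0.44 and 0.27), early round (0.17, 0.31 and 0.19), starting elongation (0.21, 0.45 and 0.20) and elongating spermatids (0.62, 0.71 and 0.35), a hint from the data and not from the design. With a replicate block edgeR called 5 genes by diet in early prophase, 1 in pachytene, 8 in early round, 1 in later round, 3 in starting elongation, 1 in elongating spermatids and 31 in all barcodes, none of them a member. Without a filter it called 6, 3, 27, 4, 54, 5, 8 and 1 from spermatogonia to elongating spermatids. DESeq2 called 1 in spermatogonia. Leaving out 1 library gave 0 to 752 genes and 0 to 2 members in early round, 0 to 6 in starting elongation and 0 to 2 in all barcodes. A term setting the replicate 1 libraries apart gave 0 throughout.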
